A study of Homo sapiens with 28 samples.

Results

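The keratin genes were taken as the protein-coding genes on chromosomes 12 and 17 whose symbol is KRT followed by digits and at most 1 letter, which gave 55 of the 19817 protein-coding genes examined, 27 on chromosome 12 and 28 on chromosome 17. Peaks were assigned to a gene when they came within 1 kb of either annotated end. The data are chromatin immunoprecipitation with sequencing (ChIP-seq) from T47D, a long-established cell line derived from a luminal breast cancer, and consist of 8 peak lists, 1 for each immunoprecipitated group of 2 samples. Of the 28 samples, 16 were immunoprecipitated and 12 had no antibody. The groups were ZHX2, CTCF and H3K27ac in normoxia, the same 3 targets in hypoxia, and Flag in hypoxia from cells with WT or with PA ZHX2. The oxygen level and the length of the hypoxia are not given in the sources used here, and neither is what PA changes. The culture protocol of every sample speaks of lentivirus infection with drug selection, without naming the samples or vectors concerned, so it is not known here whether the cells of the ZHX2, CTCF and H3K27ac groups carried a vector. All cells with a Flag group were in hypoxia, so Flag has no normoxia counterpart.

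Keratins are the intermediate filament proteins of epithelial cells. A type I keratin, encoded on chromosome 17 in all but the case of KRT18, pairs with a type II keratin, encoded on chromosome 12, to build the filament. The luminal cells of the breast are known for KRT8, KRT18 and KRT19, and the basal or myoepithelial cells for KRT5, KRT14 and KRT17. Hair keratins build the hair shaft or the sheath around the hair root and are not proteins of breast epithelium. ZHX2 combines zinc fingers with homeodomains and acts in the nucleus. CTCF binds DNA where chromatin loops are anchored, and H3K27ac, the acetylation of histone H3 at lysine 27, is found on active promoters and enhancers.

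In each single list most keratin genes had no peak at either end, while KRT7, KRT8, KRT18 and KRT19 had peaks in nearly all lists. For ZHX2, 5 of the 55 keratin genes (9.09%) had a peak in normoxia, against 29.7% of all protein-coding genes, and 8 (14.5%) had a peak in hypoxia, against 56.3%. For Flag, 10 keratin genes (18.2%) had a WT peak, against 58.5% of all genes, and 5 (9.09%) a PA peak, against 50.2%. For CTCF the counts were 21 (38.2%) in normoxia and 11 (20%) in hypoxia, against 61.9% and 59.6% of all genes. H3K27ac lay at 19 keratin genes (34.5%) in normoxia and 20 (36.4%) in hypoxia, against 64.4% and 65.2%. With a wider window of 3 kb, 36 and 29 keratins had CTCF, against 73% and 70% of all genes, and by peak midpoint 11 and 12 had H3K27ac, against 52.4% in each condition. Within 1 kb, the keratin share was thus below that of all genes in each of the 8 lists. In 24 keratin genes no list had a peak within 1 kb of an end, and in 13 of those, KRT5 among them, no peak lay in the gene or within 1 kb of it. The share of all genes without a peak in any list was not counted, so 24 and 13 have no background. Each group has 1 list and no values per replicate, so none of these differences has a replicate check, no test was possible, and the sources used here do not give the read depth. Neighbouring keratin genes share peaks and are not independent of each other.

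**Figure D1:**
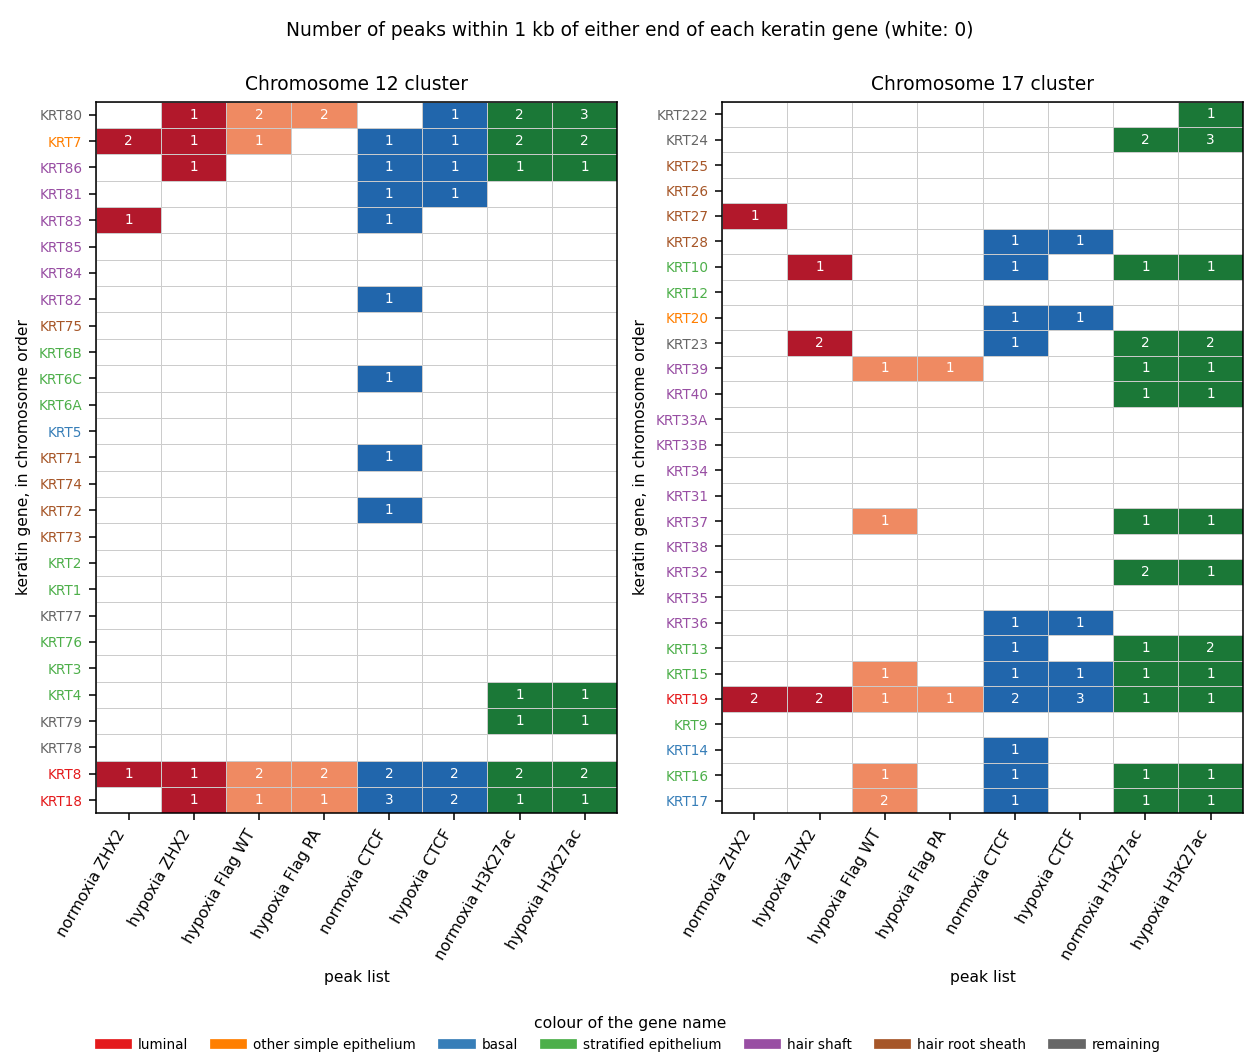
Number of peaks within 1 kb of either end of each keratin gene (rows, in chromosome order, names coloured by group) in each of the 8 peak lists (columns); white cells have 0 peaks. The rows of KRT7, KRT8, KRT18 and KRT19 are filled in nearly every list (KRT18 is empty in normoxia ZHX2 and KRT7 in PA Flag), and 24 rows are empty.

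By group, the 3 luminal keratins all had an end peak in 7 of the 8 lists and 2 of 3 had one in normoxia ZHX2. None of the 3 basal keratins had a ZHX2 peak in either condition or a PA Flag peak. The 9 keratins of the hair root sheath had no H3K27ac or Flag peak in any list, and the 17 hair shaft keratins had 5 members with H3K27ac in each condition. Of the 14 keratins of stratified epithelium, 5 had H3K27ac in each condition and 1, KRT10, had a ZHX2 peak, in hypoxia. With 3 luminal and 3 basal members, these counts describe single genes and their neighbours.

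**Figure D2:**
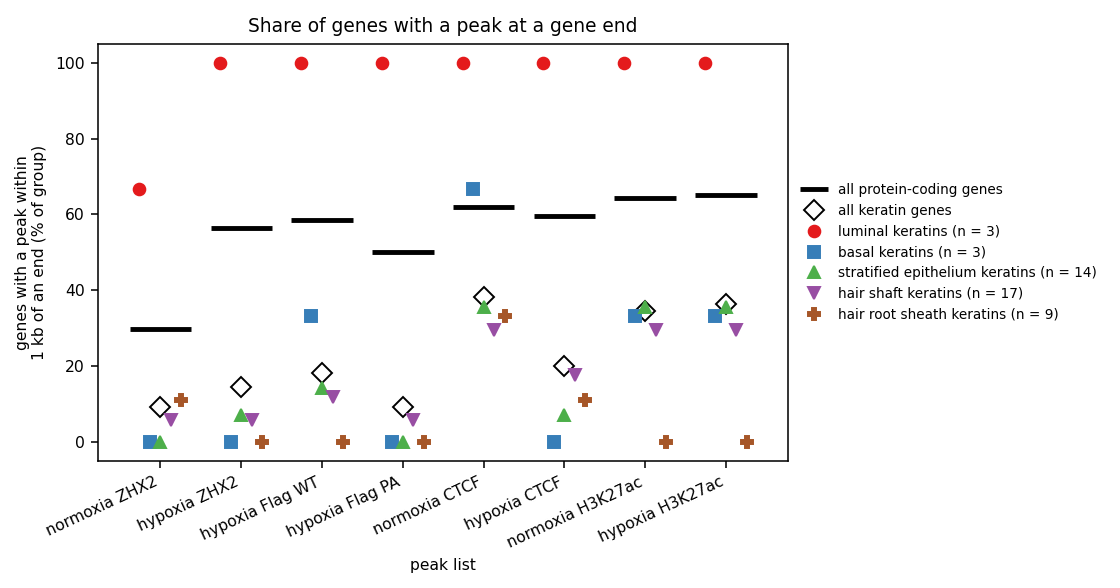
Share of genes (%) with a peak within 1 kb of an end in each list, for all protein-coding genes (bars), all 55 keratin genes (open diamonds) and 5 keratin groups (coloured symbols, n in the legend). The luminal points are at 100% in 7 lists, above the bars, and the diamonds of all keratins are below the bars in all 8 lists.

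The promoter windows of the keratin genes were read from RefSeq (GRCh38.p14) as the 250 bases before and 50 bases after a transcription start. The table matched 34 of the 55 genes, all on the minus strand, with 38 windows because some genes have several starts. No window was matched for KRT18, KRT19, KRT7, KRT80, KRT86 and KRT23, which had hypoxia ZHX2 at an end. KRT13, KRT14, KRT15, KRT16 and KRT17 had none either. The window shares therefore leave out most keratins with hypoxia ZHX2 at an end. Of these 34 genes, 29 had no peak of any list in a window, and the other 5 were KRT8, KRT20, KRT73, KRT4 and KRT40. The share of all genes without a peak of any list in a window was not counted, so 29 has no background. A hypoxia ZHX2 peak overlapped 1 of the 38 windows, that of KRT8, and a WT Flag peak overlapped the same window, against 35.5% and 41.5% of all 35116 windows in the table. CTCF peaks overlapped 2 windows in each condition, those of KRT20 and KRT73, against 34.7% of all windows in normoxia and 33.9% in hypoxia. H3K27ac peaks overlapped 5 windows in each condition, of KRT4, KRT8 and 3 of the 4 starts of KRT40, against 47.5% and 48.3%. These 3 windows of KRT40 overlap each other and were hit by the same peak, of 2.83-fold in normoxia and 2.88-fold in hypoxia.

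The windows of 5 genes are printed as the 250 bases before the start, 5′ to 3′ on the minus strand: KRT8 as the luminal keratin with ZHX2 at its start, KRT20 and KRT73 as those with CTCF, KRT5 as the basal keratin without any peak, and KRT31 as a hair keratin without any peak. They were chosen after their values were seen. Capitals mark TATAAA on either strand and the 10 bases on each side of the authors' normoxia CTCF summit with the summit itself. The windows are chr12:52926470-52926719 (KRT8), chr17:40885243-40885492 (KRT20), chr12:52618560-52618809 (KRT73), chr12:52520395-52520644 (KRT5) and chr17:41397609-41397858 (KRT31).
KRT8: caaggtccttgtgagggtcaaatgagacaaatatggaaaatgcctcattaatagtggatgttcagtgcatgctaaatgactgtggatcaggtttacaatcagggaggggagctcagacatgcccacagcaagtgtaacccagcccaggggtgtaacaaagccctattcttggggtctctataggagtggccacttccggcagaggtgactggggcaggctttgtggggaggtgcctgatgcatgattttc
KRT20: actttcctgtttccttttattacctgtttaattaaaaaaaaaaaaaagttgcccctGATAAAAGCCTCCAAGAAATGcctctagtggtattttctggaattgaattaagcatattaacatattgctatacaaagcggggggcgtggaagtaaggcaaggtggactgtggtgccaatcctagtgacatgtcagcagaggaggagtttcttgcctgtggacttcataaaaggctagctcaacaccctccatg
KRT73: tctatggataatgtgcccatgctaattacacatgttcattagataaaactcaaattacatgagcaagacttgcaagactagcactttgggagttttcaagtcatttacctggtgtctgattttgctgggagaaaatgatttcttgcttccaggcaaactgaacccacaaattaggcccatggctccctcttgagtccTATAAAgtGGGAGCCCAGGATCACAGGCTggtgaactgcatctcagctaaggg
KRT5: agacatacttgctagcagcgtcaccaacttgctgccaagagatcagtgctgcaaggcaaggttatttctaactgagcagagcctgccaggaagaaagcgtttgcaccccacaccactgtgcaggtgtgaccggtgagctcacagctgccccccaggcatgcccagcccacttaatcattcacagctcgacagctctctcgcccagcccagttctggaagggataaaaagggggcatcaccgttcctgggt
KRT31: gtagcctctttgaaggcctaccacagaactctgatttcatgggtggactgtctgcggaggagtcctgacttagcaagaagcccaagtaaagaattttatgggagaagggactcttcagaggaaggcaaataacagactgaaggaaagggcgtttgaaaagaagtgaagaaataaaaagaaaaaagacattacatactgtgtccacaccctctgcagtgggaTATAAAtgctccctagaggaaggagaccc

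In KRT20 the CTCF summit lay 184 bases before the start in normoxia and 159 in hypoxia, in peaks of 23.8-fold and 15.4-fold enrichment. In KRT73 the summits lay 35 and 56 bases before the start, in peaks of 7.63-fold and 4.63-fold, and the capitals show TATAAA beside the normoxia summit. The hypoxia ZHX2 summit of KRT8 lay 37 bases after the start, just beyond the printed bases. The letters TATAAA are not in the windows of KRT8, KRT20 and KRT5. They are in 21 of the 38 keratin windows (55.3%), on either strand, against 11.5% of all windows. On the strand of the gene, with the first letter 25 to 35 bases before the start, TATAAA is in 16 windows (42.1%), 1 in each of 16 genes, against 2.17% of all windows. None of these 16 windows overlapped a peak of any list. Of the 34 keratin genes with a window, however, 29 had no window peak at all. The share of all windows with such a TATAAA and no peak was not counted, so this count has no background. In KRT40, which had H3K27ac at its other 3 starts, this TATAAA is before the start without it.

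Most other short motifs were less common in keratin windows than in all windows, each searched on both strands. GGGCGG, the GC box read by SP1, was in 15.8% of keratin windows and 45% of all. CCCTC, part of the CTCF core, was in 52.6% and 71.2%. Of the hypoxia response element cores, ACGTG was in 18.4%, near the 21.4% of all windows, and GCGTG in 15.8% against 36.5%. Overlapping windows of KRT40 hold the same ACGTG and GCGTG bases, so these sites were counted more than once. TGANTCA, the AP-1 site, was in 0 of the 38 windows against 7.71% of all. The windows of neighbouring keratin genes are related in sequence, so they are not separate observations, and a match says nothing about binding.

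KRT8 and KRT18 encode the main filament pair of simple epithelium and lie side by side at the end of the chromosome 12 cluster. The annotated KRT8 (chr12:52897191-52949860) is 52.67 kb long and overlaps KRT18 (chr12:52948855-52952906) by 1006 bp, so that peaks counted at the upper end of KRT8 lie at KRT18. The promoter table places a KRT8 start well inside this span, at position 52926469. From 1 kb below KRT8 to 1 kb above KRT18 there were 3 ZHX2 peaks in normoxia and 9 in hypoxia, and 4 WT and 2 PA Flag peaks. The same 57.716 kb held 8 CTCF peaks in each condition and 7 H3K27ac peaks in each condition, which covered 52.9% of it in normoxia and 51.3% in hypoxia. The hypoxia ZHX2 list thus held more peaks here than the normoxia list, while the CTCF and H3K27ac lists held equal numbers. The whole hypoxia ZHX2 list is also longer, with 32343 peaks against 14586.

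At the lower end of KRT18, 1 ZHX2 peak in hypoxia (chr12:52948628-52949183) had a fold enrichment of 4.53, which ranked at the 81.1 percentile of its list, and no normoxia peak overlapped it. The fold enrichment and −log10 q of a peak are the authors' values and are compared here only within a list. Inside KRT18 a weaker normoxia peak (chr12:52950336-52950540) had a fold of 2.39, at the 6.97 percentile. This peak is 476 bp beyond the annotated end of KRT8 and 1481 bp from the nearer end of KRT18, so it was counted for KRT8 and not for KRT18. Both conditions therefore had a ZHX2 peak in KRT18, at different positions. CTCF peaks at KRT18 reached 99.3-fold in normoxia and 81.3-fold in hypoxia. A single H3K27ac domain covered all of KRT18, with 15140 bp and 26.1-fold in normoxia and 14402 bp and 26.4-fold in hypoxia.

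Over the lower part of KRT8, the strongest ZHX2 peak of normoxia (chr12:52907190-52907496) had a fold of 4.86 and the strongest of hypoxia (chr12:52904958-52905420) a fold of 4.35. Each overlapped a peak of the other condition. The latter lay on the strongest CTCF peak within KRT8, which reached 298-fold in normoxia, at the 97.7 percentile of its list, and 187-fold in hypoxia, at the 94.0 percentile. An H3K27ac domain of 16324 bp in normoxia (26.8-fold) and 15217 bp in hypoxia (28.7-fold) spanned both, so the most enriched acetylation of KRT8 was at this lower end in either condition. At the KRT8 start of the promoter table, in contrast, a ZHX2 peak of 3.54-fold was in the hypoxia list alone, with a WT Flag peak and without a PA Flag or CTCF peak. H3K27ac there was 13.5-fold in normoxia and 11.8-fold in hypoxia.

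Flag peaks over KRT8 and KRT18 were among the widest of their lists. The domain over the lower end of KRT8 (chr12:52895110-52908841) was 13732 bp wide in both the WT and the PA list, and that over KRT18 (chr12:52946444-52955371) was 8928 bp wide in both. The first held 3 ZHX2 peaks of normoxia, 6 of hypoxia and 3 CTCF peaks in each condition. The WT list had 2 more peaks in this stretch, at the KRT8 start and next to the KRT18 domain. The start and end of the wide domains were the same to the base in WT and PA. This held for 15163 peaks of the whole lists, 94.7% of PA and 48.5% of WT peaks, so these 2 lists are not separate determinations of peak width.

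**Figure D3:**
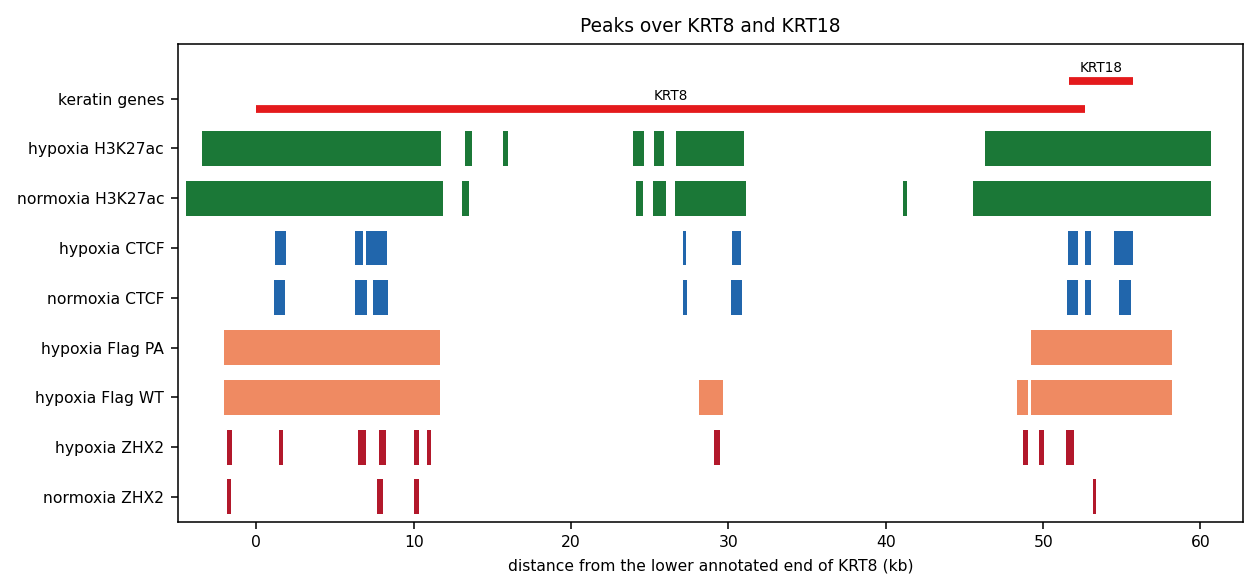
Peaks of the 8 lists (rows) over KRT8 and KRT18, as boxes along the distance in kb from the lower annotated end of KRT8; gene spans are at the top. The 13732 bp Flag domain at the left holds 3 normoxia and 6 hypoxia ZHX2 peaks, and the middle hypoxia ZHX2 and WT Flag boxes mark the KRT8 start, where the normoxia ZHX2 and PA rows are empty.

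KRT19 encodes the luminal type I keratin that lacks most of the tail domain. Its ends (chr17:41523617-41528308) had 2 ZHX2 peaks in each condition. In normoxia these had folds of 2.23 and 4.41, and in hypoxia of 3.22 and 3.25. The peaks at the upper end overlapped between conditions, and those at the lower end did not. One Flag domain of 9189 bp covered the whole gene in both WT and PA, and held 3 normoxia and 4 hypoxia ZHX2 peaks. CTCF peaks at KRT19 were weak, the strongest being 5.91-fold in normoxia (15.8 percentile of the list) and 3.88-fold in hypoxia (5.06 percentile).

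The H3K27ac domain over KRT19 was the widest of the keratin genes, with 50975 bp and 29.3-fold in normoxia and 46941 bp and 31.9-fold in hypoxia. It also reached KRT15, a keratin of basal epidermal cells, and KRT13, a keratin of mucosal epithelium, so 1 domain counted for 3 genes. KRT15 was covered whole in both conditions, while KRT13 was covered whole in normoxia and by 46.4% in hypoxia. The most enriched ZHX2 peak of either cluster in the hypoxia list lay within this domain, 7486 bp beyond KRT19 (chr17:41535794-41536600), with a fold of 8.32 and at the 97.7 percentile. It overlapped a normoxia peak of 5.11-fold and lay in a Flag domain of 6521 bp present in WT and PA.

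**Figure D4:**
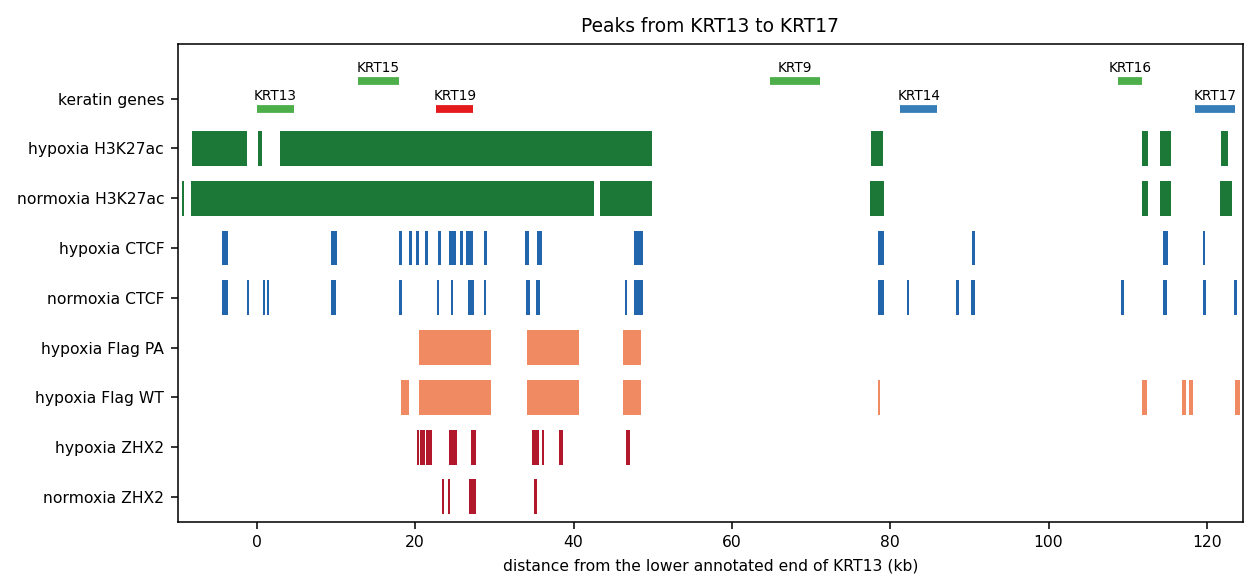
Peaks of the 8 lists (rows) from KRT13 to KRT17, as boxes along the distance in kb from the lower annotated end of KRT13; gene spans are at the top. ZHX2 boxes lie around KRT19 on both sides and none at KRT14 or KRT17, where WT Flag has boxes at KRT17 and PA has none.

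The basal keratins had few peaks. KRT5 (chr12:52514575-52520394), the type II keratin of basal cells, had no peak in any list within the gene or 1 kb of it. The nearest H3K27ac peak was 135052 bp away in normoxia and 134987 bp in hypoxia, and the nearest ZHX2 peak was 193374 bp away in normoxia and 29534 bp in hypoxia. KRT14 (chr17:41582279-41586895), its type I partner, had 1 peak, of CTCF in normoxia, with a fold of 8.60. KRT17 (chr17:41619442-41624575) had H3K27ac of 3.28-fold in normoxia and 2.86-fold in hypoxia, at the 23.4 and 15.5 percentiles of the lists. It also had a normoxia CTCF peak of 7.73-fold at its end, and 2 WT Flag peaks against 0 PA peaks. The luminal keratins KRT8, KRT18 and KRT19 had H3K27ac of 26.1-fold to 29.3-fold in normoxia, so within that list KRT17 was the lower by far.

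Of the other simple-epithelium keratins, KRT7 had peaks of ZHX2, CTCF and H3K27ac in both conditions. KRT7 (chr12:52233243-52255853) encodes a type II keratin of glandular epithelium. Its lower end carried the most enriched normoxia ZHX2 peak of the keratin genes, at 5.87-fold and the 92.0 percentile, and 1 hypoxia peak of 4.04-fold (1317 bp) that overlapped both normoxia peaks at that end. CTCF reached 34.4-fold in normoxia and 22.3-fold in hypoxia there, and H3K27ac formed a domain of 22168 bp (24.0-fold) and 22500 bp (19.3-fold). A WT Flag peak lay at this end and no PA peak did, although 1 PA domain of 5001 bp lay inside the gene. KRT20, a keratin of intestinal epithelium, had the CTCF peaks over its start and no peak of ZHX2, Flag or H3K27ac.

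Some hair keratins carried H3K27ac, and few carried ZHX2. KRT37, a hair shaft keratin, had the most enriched H3K27ac peak of both clusters in normoxia, at 35.3-fold over 18082 bp, and 31.9-fold over 13948 bp in hypoxia. The start of KRT37 is at 41424585. The normoxia domain (chr17:41404813-41422894) ended more than 1 kb below this start, and the hypoxia domain ended within 1 kb of it, at 41424443. KRT37 had a WT Flag peak and neither a PA nor a ZHX2 peak at its ends, though 3 hypoxia ZHX2 peaks lay 4216 to 7010 bp below it. KRT39 had H3K27ac of 17.95-fold and 15.4-fold and the same Flag peak of 720 bp in WT and PA. All of these peaks ended more than 1 kb below the KRT39 start at 40966948. KRT86 had ZHX2 in hypoxia (3.96-fold) and KRT83 in normoxia (2.85-fold), each without an overlapping peak in the other condition. In the root sheath group, KRT27 had a normoxia ZHX2 peak of 2.54-fold with a −log10 q of 1.68, close to the lowest in the list, 1.30.

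At hair keratins, CTCF peaks at the gene ends were mostly without acetylation, as were most CTCF peaks of the whole list. In the whole normoxia list, 28.8% of CTCF peaks with a hypoxia overlap and 23.4% of those without one lay on H3K27ac. In the keratin clusters these shares were higher, with 52 of 90 (57.8%) and 14 of 35 (40%). They count peaks on acetylation, whereas the hair keratins below were read by H3K27ac at the gene ends. KRT28, of the root sheath, had 104-fold in normoxia and 134-fold in hypoxia and no other list at its ends. KRT81 had 53.5-fold and 19.1-fold, and KRT36 41.9-fold and 22.03-fold, also without H3K27ac at the ends. KRT86, whose annotated span contains KRT81, had H3K27ac of 4.78-fold and 4.09-fold beside CTCF of 19.7-fold and 5.65-fold at its end. Inside KRT86 lay a CTCF peak of 442-fold in normoxia and 417-fold in hypoxia, the most enriched of both clusters in the hypoxia list. In the normoxia list it was second to a peak of 483-fold 16663 bp below KRT8.

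Among keratins of stratified epithelium, KRT10, of the upper layers of the epidermis, had H3K27ac of 18.5-fold in normoxia and 17.8-fold in hypoxia and a hypoxia ZHX2 peak of 2.55-fold. These peaks ended more than 1 kb below the KRT10 start at 40822614. KRT4, of mucosal epithelium, had H3K27ac of 12.6-fold and 11.2-fold. KRT16, an injury-response keratin, had H3K27ac of 3.50-fold and 3.95-fold, and a WT Flag peak. Of the remaining keratins, KRT80 had ZHX2 in hypoxia at its upper end (4.61-fold), where both Flag lists had a peak of 2142 bp and H3K27ac was 14.0-fold and 11.0-fold. KRT23 had 2 hypoxia ZHX2 peaks, of 3.78-fold and 3.06-fold, in H3K27ac of 16.3-fold and 15.7-fold. Of the 8 keratins with hypoxia ZHX2 at an end, all had H3K27ac at an end in both conditions. The same share over all genes with hypoxia ZHX2 was not counted. In hypoxia, H3K27ac was at an end of 65.2% of all genes and on 72.9% of all ZHX2 peaks.

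Between normoxia and hypoxia, ZHX2 was at an end of KRT80, KRT86, KRT18, KRT10 and KRT23 in the hypoxia list and not the normoxia list, 5 of 55 (9.09%) against 28.5% of all protein-coding genes. It was at KRT83 and KRT27 in normoxia and not hypoxia, 2 of 55 (3.64%) against 1.85%, and at KRT7, KRT8 and KRT19 in both (5.45% against 27.8%). The end peaks counted for KRT8 lay at KRT18 in either condition, and they did not overlap each other. The hypoxia peak was also the one counted for KRT18, so the split between KRT8 and KRT18 follows from their overlapping annotation. KRT80 and KRT18 had a normoxia ZHX2 peak inside the gene, away from its ends, so with gene bodies included 3 keratins, KRT86, KRT10 and KRT23, were in the hypoxia list alone. In the upper 50% of the lists by score no keratin had ZHX2 in normoxia alone, against 2.34% of all genes. At a −log10 q of at least 5, KRT8 was in the hypoxia list alone and KRT10 was not.

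CTCF showed the other direction. Among the keratins, 11 of 55 (20%) had a CTCF end peak in normoxia and not in hypoxia, against 5.19% of all genes, while 1, KRT80, had one in hypoxia alone (1.82% against 2.86%), and 10 had one in both (18.2% against 56.7%). The 11 were KRT83, KRT82, KRT6C, KRT71, KRT72, KRT10, KRT23, KRT13, KRT14, KRT16 and KRT17. For KRT82 and KRT6C a hypoxia peak overlapped the normoxia peak but lay 1022 and 1044 bp from the end, just outside 1 kb, against 948 and 985 bp in normoxia. The other 9 had no overlapping hypoxia peak, and their normoxia folds ran from 3.88 at KRT23 to 10.0 at KRT16. Within both clusters, 35 of 125 normoxia CTCF peaks had no hypoxia overlap, and these had a median fold of 5.92 against 39.0 for the 90 with overlap. In the whole normoxia list the medians were 5.71 and 30.4. The peaks without a partner were thus the weaker ones of the list, at the keratins as in the whole list. The normoxia CTCF list is longer, with 88248 peaks against 77334. The count of 11 fell to 7 within 3 kb, against 5.02% of all genes, and to 5 within 0.5 kb, against 5.11%. In the upper 50% of the lists by score it was 2 of 55 (3.64%) against 4.54%, so there the keratin share was below that of all genes.

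H3K27ac differed at 1 keratin, KRT222, with a hypoxia peak of 3.09-fold and none in normoxia (1.82% against 1.45% of all genes). No keratin had H3K27ac in normoxia alone (0.58% of all genes), and 19 had it in both (34.5% against 63.8%). Between the Flag lists, KRT7, KRT37, KRT15, KRT16 and KRT17 had a WT and no PA end peak (9.09% against 8.79% of all genes), none had a PA peak alone (0.479% of all genes), and KRT80, KRT8, KRT18, KRT39 and KRT19 had both (9.09% against 49.7%). The WT-alone share of the keratins was near that of all genes. The WT list holds 31278 peaks and the PA list 16019. With the lists at equal length, 1 keratin had a WT peak alone, against 4.48% of all genes, and within 3 kb 9 did, against 9.38%.

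Taken as stretches of the genome, the pooled clusters were denser in peaks than the genome, though for normoxia ZHX2 and PA Flag the interval on chromosome 17 alone included the density of the genome. The cluster of chromosome 12 (chr12:52167996-52953906, KRT80 to KRT18) spans 785.911 kb and that of chromosome 17 (chr17:40653665-41625575, KRT222 to KRT17) 971.911 kb. Together they held 17 normoxia and 46 hypoxia ZHX2 peaks, 2.01 times (95% Wilson interval 1.25 to 3.22) and 2.45 times (1.84 to 3.27) the density of the whole list. The ratios were 3.36 (2.62 to 4.32) for the 61 WT and 2.37 (1.56 to 3.58) for the 22 PA Flag peaks. For CTCF they were 2.44 (2.05 to 2.91) with 125 peaks in normoxia and 2.18 (1.79 to 2.66) with 98 in hypoxia, and for H3K27ac 2.87 (2.28 to 3.62) with 71 and 2.80 (2.24 to 3.51) with 76. On chromosome 17 alone the ratio was 1.28 (0.59 to 2.80) for normoxia ZHX2 and 1.17 (0.54 to 2.55) for PA Flag, against 2.91 (1.62 to 5.20) and 3.85 (2.37 to 6.25) on chromosome 12. By covered bases in place of peaks, the pooled ratios were 4.21 for PA Flag and 4.92 and 4.68 for H3K27ac in normoxia and hypoxia. These intervals cover counting error over peaks only, and gene-rich stretches other than the keratin clusters were not compared.

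Peaks were unevenly spread within the clusters. The longest stretch without a ZHX2 peak in either condition was 315.768 kb on chromosome 12 and held 11 keratin genes, from KRT6A and KRT5 to KRT3. The longest without H3K27ac in either condition was 309.059 kb and held 13, from KRT85 to KRT2, while the longest without CTCF in either condition on that chromosome was 59.947 kb, and 96.241 kb in the hypoxia list, with KRT76, KRT3 and KRT4. On chromosome 17 CTCF had the longest stretch, with 239.302 kb without CTCF, 150.221 kb without ZHX2 and 113.966 kb without H3K27ac, and none of these stretches held a whole keratin gene. On chromosome 17 a block of 34 keratin-associated protein genes, whose products embed the hair keratins, spans 322.281 kb between KRT40 and KRT33A. It held 0 normoxia and 2 hypoxia ZHX2 peaks, 1 WT and 0 PA Flag peaks, 4 and 3 CTCF peaks, and 5 H3K27ac peaks in each condition. On chromosome 12, CTCF peaks thus lay within the long stretch without H3K27ac.

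**Figure D5:**
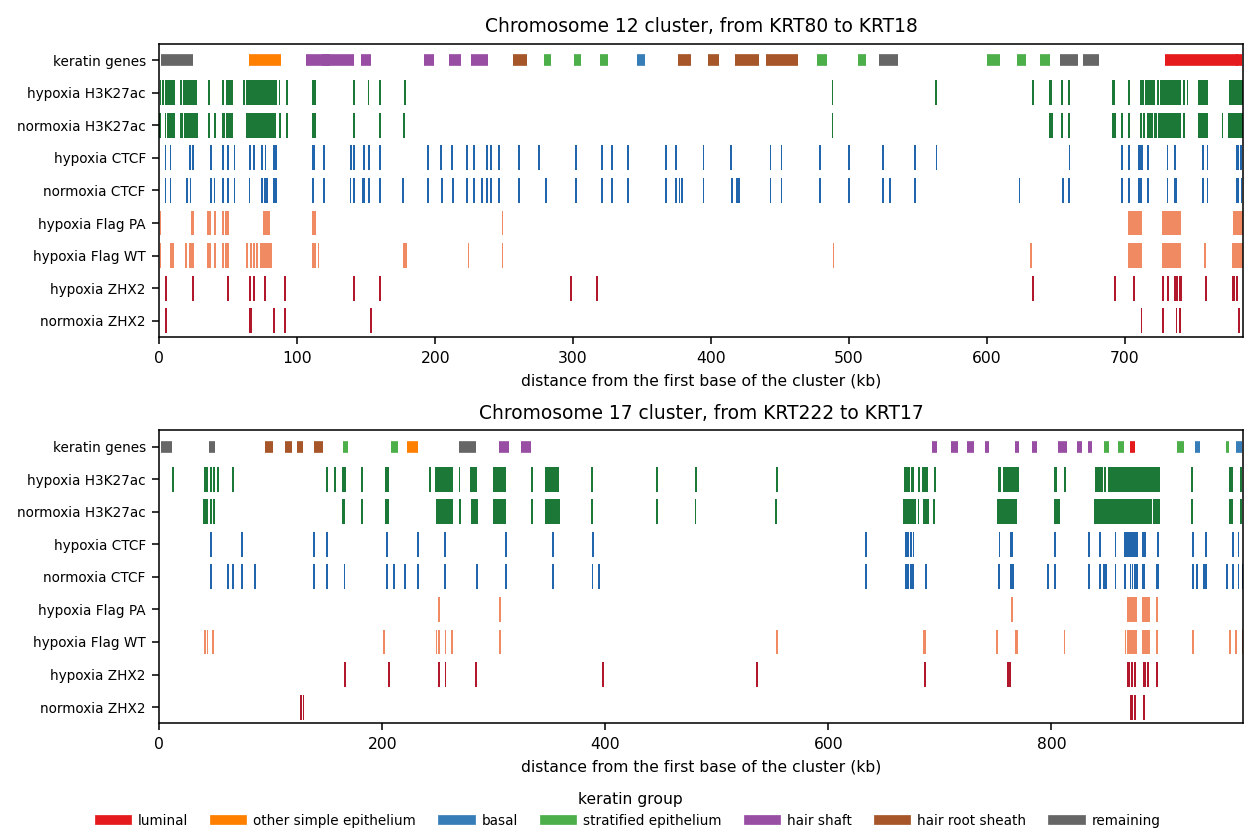
Peaks of the 8 lists (rows) along the keratin clusters of chromosome 12 (top) and chromosome 17 (bottom), by distance in kb from the first base of the cluster; gene spans are coloured by group, and narrow peaks are drawn wider than scale so that they can be seen. The middle of the chromosome 12 cluster has CTCF boxes and almost no ZHX2, Flag or H3K27ac boxes, and the KRT8 to KRT18 end has all of them.

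Overlaps among the cluster peaks were set beside those of the whole lists. In the clusters, 9 of the 46 ZHX2 peaks of hypoxia overlapped one of normoxia (19.6%, 95% Wilson interval 10.7 to 33.2) against 27.4% of the whole list, and 33.3% did with the lists at equal length. Of these 46, 40 lay on hypoxia H3K27ac (87.0%, 74.3 to 93.9) against 72.9%, and 19 on hypoxia CTCF (41.3%, 28.3 to 55.7) against 45.6%. Of 61 WT Flag peaks, 15 overlapped a hypoxia ZHX2 peak (24.6%, 15.5 to 36.7) against 44.9% of the whole list, and 21 overlapped a PA peak (34.4%, 23.7 to 46.95) against 48.5%. The last value depends on the lengths of the lists, and at equal length 70.8% of the WT peaks in the clusters overlapped a PA peak. Normoxia CTCF peaks overlapped a hypoxia peak in 72% (63.6 to 79.1) against 82.3%. Neighbouring peaks are not independent, so the intervals are too narrow.

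Filament partners, other intermediate filament genes and regulators of keratin genes had ZHX2 at a larger share of members than the keratins, and keratin-associated proteins at none. All 13 filament partners, the desmosome and plakin genes such as DSP, JUP and PLEC, had hypoxia ZHX2 and WT Flag at an end, against 56.3% and 58.5% of all genes, and 12 had H3K27ac in each condition, against 64.4% and 65.2%. Of the 8 other intermediate filament genes, 6 had ZHX2 in each condition, against 29.7% of all genes in normoxia and 56.3% in hypoxia, including VIM, the filament gene of mesenchymal cells, which had no H3K27ac. Of 11 regulators of keratin genes, 5 had ZHX2 in normoxia and 8 in hypoxia, against the same 29.7% and 56.3%. ELF3, GATA3 and TFAP2A, 3 of the 11, had it in hypoxia alone, a share near the 28.5% of all genes. The GATA3 peak was at the 8.77 percentile of its list. H3K27ac was at 8 of the 11 in each condition, against the same 64.4% and 65.2%. Keratin-associated proteins had no ZHX2 or Flag peak at an end in any of 94 genes, and 16 in normoxia and 9 in hypoxia had CTCF, against 61.9% and 59.6% of all genes.

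Marker genes were examined at the level of H3K27ac, which is not a measure of expression and was at an end of 64.4% of all genes in normoxia and 65.2% in hypoxia. Of 9 epithelial and luminal markers, 8 in normoxia and 9 in hypoxia had H3K27ac at an end, ESR1, GATA3 and EPCAM among them. Of 6 basal or myoepithelial markers, 3 (ACTA2, MYLK and EGFR) had it in each condition. It lay at 1 of 5 fibroblast and stroma markers, 1 of 5 immune markers and 1 of 2 endothelial markers in each condition.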

How the data were processed

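ChIP-seq peaks of T47D cells were analysed in 28 samples grouped by title and antibody label, of which 16 formed 8 groups of 2. The tools named are cutadapt, Bowtie2 and MACS2, without versions, and the build is GRCh38 (hg38), per the submitters' processing notes. The authors deposited 1 peak list per group. The sources used here do not give read depth, how inputs were used or whether samples were pooled, and the precision of a peak is therefore unknown. In the deposited lists the score is 10 times the −log10 q without its decimals, and the fold enrichment is a ratio over background. The −log10 q values are the authors'. Flag lists hold positions alone. The 4 Flag-titled samples without an antibody were used in no group.

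Only peaks on chromosomes 1 to 22 and X entered. Gene ends came from a RefSeq table of GRCh38.p14, without strand or exons, so a peak at an end may lie at either end of transcription. Strand and start were known only for the 34 keratin genes with promoter windows. Positions are 1-based. A peak was counted within 1 kb of an end, and clusters were extended by 1 kb. Peaks overlapped with at least 1 bp in common. Exons, introns and expression were not analysed here. Named were the luminal and basal keratins, KRT7 and KRT20, each keratin with ZHX2 or Flag at an end or with a peak in 1 list of a comparison alone, and the 5 highest folds per CTCF and H3K27ac list; others were named after their values were seen. The members, groups and lists were chosen with earlier results of these data known. No test was run, since groups have no replicate values. Shares have 95% Wilson intervals. The counting steps were tested on simulated data. Python 3.11.15 with numpy 2.4.6 and pandas 2.3.3 was used.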

Additional observations from a re-analysis of the deposited data

How the results depend on the processing

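Of 188 alternative values, 141 stayed within the criterion (counts within 1.5 times, shares and densities within their interval) and 47 moved. The labels did not record whether a share crossed that of all genes, as normoxia-alone CTCF did in the upper 50%. No paired analysis was possible because each group has 1 list without values per sample, and for the same reason no replicate could be left out. The cause of the moves was not tested beyond what each setting does. Counts of the 55 keratins follow, each with the share of all genes at the same setting in parentheses. Normoxia ZHX2 had 2 (19.2%) in the upper 50% by score and 2 (22.4%) at a −log10 q of at least 5. WT Flag had 5 (52.6%) with lists shortened to equal length, and PA Flag 2 (45.4%) by midpoint. Normoxia CTCF had 36 (73%) within 3 kb, 13 (56%) within 0.5 kb, 35 (80.2%) with gene bodies and 7 (33%) in the upper 50%, and hypoxia CTCF had 29 (70%), 25 (78%) and 5 (29.4%) within 3 kb, with gene bodies and in the upper 50%. H3K27ac by midpoint had 11 (52.4%) in normoxia and 12 (52.4%) in hypoxia. Hypoxia-alone ZHX2 had 8 (28.6%) within 3 kb and 3 (28.8%) with gene bodies, and normoxia-alone ZHX2 had 0 (2.34%) in the upper 50% and 0 (2%) at a −log10 q of at least 5. Hypoxia-alone CTCF had 0 (2.03%) within 3 kb, 0 (1.49%) with gene bodies and 0 (0.908%) in the upper 50%. Normoxia-alone CTCF had 7 (5.02%) within 3 kb, 5 (5.11%) within 0.5 kb and 2 (4.54%) in the upper 50%. Hypoxia-alone H3K27ac had 2 (1.78%) with gene bodies and 4 (3.33%) by midpoint, and normoxia-alone had 4 (0.636%) within 0.5 kb and 3 (3.36%) by midpoint. WT-alone Flag had 9 (9.38%) within 3 kb and 1 (4.48%) at equal length, where PA-alone had 1 (2%). The transcription start alone could be used for 34 genes, without KRT18, KRT19 and KRT7 among others. There the counts were 1 (29.2%) in normoxia ZHX2, 1 (58.2%) in hypoxia ZHX2, 1 (60.9%) in WT and 0 (52.6%) in PA Flag. They were 4 (59.8%) in normoxia CTCF, and 3 (65.7%) and 5 (66.5%) in H3K27ac of normoxia and hypoxia. The density ratio of hypoxia ZHX2 was 3.31 with clusters widened by 50 kb, and by covered bases it was 4.21 for PA Flag, 4.92 for normoxia and 4.68 for hypoxia H3K27ac. At equal length, 33.3% of hypoxia ZHX2, 79.2% of normoxia CTCF, 70.8% of WT Flag and 77.3% of PA Flag cluster peaks overlapped the partner list, and with midpoints within 250 bp 44.7% of hypoxia and 47.9% of normoxia H3K27ac peaks did. Leaving out KRT8 and counting peaks without overlap in the partner list were added after seeing the data, and all 16 values stayed within the criterion.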
